A study of Mus musculus with 8 samples.

Results

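The genes described here present peptides to T cells: 10 names were taken (B2m, H2-K1, H2-D1, Tap1, Tap2, Tapbp, H2-Aa, H2-Ab1, H2-Eb1 and Cd74), and a probe belonged to the set if its gene name in the deposited array files was one of them. The set came to 18 of 41174 probes and to 9 of 27551 genes. No probe carried the name H2-D1. All 18 probes were well above background on all 8 arrays, so no member was lost to the filter on dim probes.

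Major histocompatibility complex (MHC) class I molecules are made by nearly all nucleated cells and show peptides from the inside of the cell to cytotoxic T cells. Each consists of a heavy chain, such as that encoded by H2-K1, and the shared light chain B2m, and is loaded in the endoplasmic reticulum with peptides pumped in by the transporter made of Tap1 and Tap2 and held close to it by Tapbp (tapasin). MHC class II molecules pair an alpha with a beta chain, H2-Aa with H2-Ab1 or H2-Ea with H2-Eb1, and are made mostly by dendritic cells, B cells and macrophages, or by other cells after exposure to interferon gamma; Cd74 is the invariant chain that escorts them to the compartment where peptides are bound.

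RNA was measured on Agilent arrays in tumours that AKT, a growth kinase, had induced in mouse salivary glands, and in the normal glands. There were 2 samples of untreated tumour, 1 of tumour given rapamycin, which blocks the kinase mTOR, for 3 days, 2 of tumour given it for 14 days, 2 of parotid and 1 of submandibular gland. The labels call every sample Mus musculus and name no strain, age or sex, and they do not give the promoter that drove AKT or say whether a sample was 1 animal or a pool. They do not say that the 2 samples of a group came from separate animals either. P-values measure the spread between these samples, which at day 14 may be technical. In untreated tumour and in parotid the 2 samples differed in sex-linked genes, as given below, and so came from different animals. Tumour treatment is given by agent and days only, and no vehicle control is named.

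Levels are given as log2 signal relative to the 75th percentile of the same array, so that 0 is the level of that percentile and a difference of 1 is a doubling. The percentile itself lay at signals of 966 and 972 on the untreated tumour arrays, 730 at day 3, 177 and 236 at day 14 and 145 to 384 on the gland arrays. Over all genes tested, the untreated tumour arrays correlated at 0.962 and 0.966 with the day 3 array, at 0.739 to 0.744 with the day 14 arrays and at 0.762 to 0.779 with the gland arrays, and the day 14 arrays correlated at 0.897 to 0.908 with the gland arrays. Salivary secretory markers (6 genes, among them Amy1 and Aqp5) had a log2 summed level of 10.73 to 11.80 in the glands, of 6.06 and 6.68 in untreated tumours and of 11.46 and 11.52 on the day 14 arrays. Skeletal muscle markers (Ckm, Acta1 and Myh2) stood at 7.59 and 7.47 on the day 14 arrays against -3.06 and -3.55 in untreated tumours and -1.93 to 4.16 in the glands. On slide 1 were the untreated tumours and replicate 1 of parotid and of day 14; the other 4 arrays shared slide 2. Xist, transcribed from the inactive X chromosome, and the Y-linked Ddx3y were both well above background on both day 14 arrays (-2.10 and -2.40 for Xist, 1.72 and 1.41 for Ddx3y). On each of the other 6 arrays only 1 of these genes was. It was Xist on untreated tumour replicate 2, parotid replicate 1, day 3 and submandibular gland. On untreated tumour replicate 1 and parotid replicate 2 it was Ddx3y. The parotid replicates thus differ in sex as well as in slide, and the untreated tumours differ in sex.

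The promoters of MHC genes carry short elements that the class I and class II genes share, among them the Y box (GATTGG), bound by NF-Y, and the X2 box, whose core TGACG is bound by factors of the CREB family; both lie close upstream of class II and class I genes and of B2m. Below are the 200 bases before the transcription start of 4 members whose levels differed together between the groups and of Tap1, whose levels did not follow them. They are read in the direction of the gene from the RefSeq annotation of GRCm38.p6, with matches to a searched motif in capitals.
B2m, chr2:122147487-122147686, plus strand: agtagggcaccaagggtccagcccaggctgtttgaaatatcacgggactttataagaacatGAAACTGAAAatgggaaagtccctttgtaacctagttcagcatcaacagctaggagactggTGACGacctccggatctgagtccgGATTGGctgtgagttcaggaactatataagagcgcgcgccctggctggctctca
H2-K1, chr17:34000348-34000547, minus strand: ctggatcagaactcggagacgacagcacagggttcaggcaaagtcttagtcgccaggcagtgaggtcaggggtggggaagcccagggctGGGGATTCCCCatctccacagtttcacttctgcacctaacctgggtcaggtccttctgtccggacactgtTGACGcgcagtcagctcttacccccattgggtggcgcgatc
H2-Aa, chr17:34287824-34288023, minus strand: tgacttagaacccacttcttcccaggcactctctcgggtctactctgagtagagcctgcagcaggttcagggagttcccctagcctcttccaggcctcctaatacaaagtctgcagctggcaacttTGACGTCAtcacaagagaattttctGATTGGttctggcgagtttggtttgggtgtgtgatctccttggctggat
H2-Eb1, chr17:34305667-34305866, plus strand: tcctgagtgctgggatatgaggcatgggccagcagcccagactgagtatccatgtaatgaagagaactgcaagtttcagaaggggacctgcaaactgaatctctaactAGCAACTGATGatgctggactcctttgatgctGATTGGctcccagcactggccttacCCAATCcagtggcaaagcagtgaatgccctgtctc
Tap1, chr17:34187356-34187555, plus strand: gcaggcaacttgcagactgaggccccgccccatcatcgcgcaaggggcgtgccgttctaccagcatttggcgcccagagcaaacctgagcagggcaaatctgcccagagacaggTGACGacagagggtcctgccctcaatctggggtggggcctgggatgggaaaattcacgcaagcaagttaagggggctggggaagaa

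The motifs were searched on both strands in windows from 250 bases before the start to 50 after it. GATTGG stood at -54 to -49 in B2m, at -49 to -44 in H2-Aa and at -60 to -55 in H2-Eb1, counting back from -1 at the base before the start, and H2-Eb1 held a second copy on the other strand at -35 to -30. It occurs in 16.1% of the 32851 windows of 300 bases in the table. TGACG, found in 20.8% of windows, stood at -78 to -74 in B2m and at -74 to -70 in H2-Aa, where it forms TGACGTCA with a second, overlapping copy on the other strand. H2-Eb1 alone of these held an X1 box core (AG, any base, AAC, any base, GATG), present in 0.298% of windows, at -92 to -82. B2m alone matched the interferon-response pattern searched (GAAA, any pair of bases, GAAA), present in 3.44% of windows, at -139 to -130. Only exact matches to each pattern were counted, so a gene without a match may still hold a variant form of the element. H2-K1 held a kappa B element (GGGGA, any base, TCCCC), which matches on both strands and is present in 0.0487% of windows, at -111 to -101. It held TGACG at -41 to -37 and GATTGG on the other strand at 8 to 13, after the start. The annotation gives it another start as well, whose window holds the same elements, with GATTGG at -6 to -1. Between its TGACG and the printed start stands CATTGG, which the exact search did not count. Tap1 held TGACG at -86 to -82 and had its Y box match only outside the printed stretch, at -222 to -217. Of the 10 names, the windows of 7 were searched. Cd74, on chromosome 18, was left out of the search, and Tap2 and H2-Ab1 had no window. The window of Tapbp, which passed in both main comparisons like B2m, held none of the searched motifs. A match is a description of these letters and not evidence of binding.

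In untreated tumours the class I light chain and heavy chain and all 4 class II genes were lower than in parotid gland, by 3.10 to 4.62 on the log2 scale, and after 14 days of rapamycin they were higher than in untreated tumours by 2.60 to 3.77. Tapbp moved in the same directions by less: it fell by 1.80 and rose by 1.50. The transporter genes Tap1 and Tap2 passed the test in neither comparison. In all, 7 of 9 genes passed in untreated tumour against parotid, all of them lower, where 39.0% of 16350 genes passed and 20.3% were lower; in day 14 against untreated tumour 7 of 9 passed, all higher, where 47.7% of genes passed and 24.3% were higher. The median difference of the 9 genes was -3.55 and 3.10, against 0.02 over all genes in both comparisons. Each p-value is from limma, a linear model with moderated variances, adjusted by the Benjamini-Hochberg method over all 16350 genes, and passing means an adjusted p under 0.05. Both comparisons share the untreated tumour arrays. In whole tissue, fewer cells that make a gene and less of its RNA per cell cannot be told apart.

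**Figure D1:**
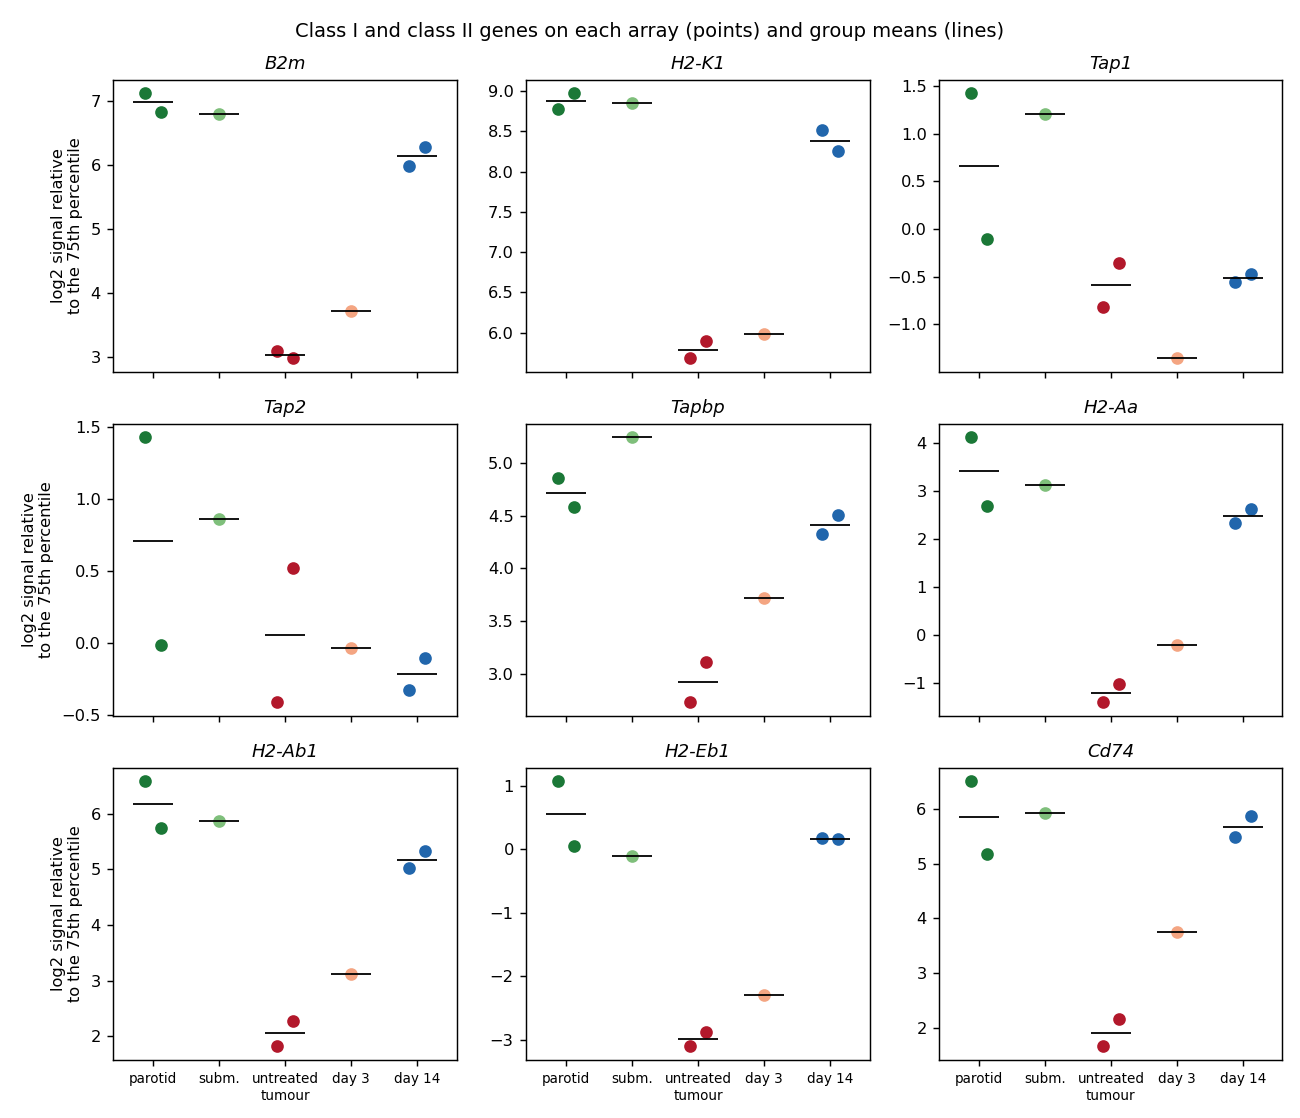
Log2 signal relative to the 75th percentile of the array (vertical axes, a scale for each gene) for the brightest probe of the 9 genes on each of 8 arrays (points, by group), with group means as lines. For B2m, H2-K1, Tapbp and the class II genes the 2 untreated tumours lie lowest and day 3 next, while Tap1 and Tap2 show no such order; B2m runs from 2.98 to 7.12.

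B2m, the light chain of all class I molecules, stood at 3.09 and 2.98 on the untreated tumour arrays, 3.71 on the day 3 array, 5.99 and 6.28 at day 14, 7.12 and 6.83 in parotid and 6.79 in submandibular gland. The groups with 2 arrays did not overlap. Its level in untreated tumours was 15.4-fold below that in parotid (log2 difference -3.94, SE 0.23, adjusted p = 0.000185), and day 14 was 8.58-fold above untreated tumour (3.10, SE 0.23, adjusted p = 0.000356). B2m lies on chromosome 2, apart from the other class I genes, and its brightest probe at 121844106-121844165 (mm8, the assembly named in the files). All 3 of its probes fell in untreated tumours against parotid, by 2.72 to 3.94, and rose at day 14, by 2.97 to 3.10; for day 14 against parotid they ran from -0.84 to 0.25, and none passed.

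H2-K1, a classical class I heavy chain, was read by its brightest probe at 5.68 and 5.89 in untreated tumours, 5.98 on the day 3 array, 8.52 and 8.25 at day 14, 8.78 and 8.98 in parotid and 8.85 in submandibular gland. The tumour arrays before day 14 lay together, and day 14 lay close under the glands. Untreated tumour was 8.56-fold below parotid (-3.10, SE 0.27, adjusted p = 0.000570) and day 14 was 6.07-fold above untreated tumour (2.60, SE 0.27, adjusted p = 0.000897). The probe lies on chromosome 17 at 33606564-33606623 (mm8).

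The 3 probes of H2-K1 did not give 1 answer for day 14. Fitted probe by probe, all fell in untreated tumours against parotid by a like amount, 3.10 to 3.31. Against untreated tumour, day 14 was higher by 2.60 by the brightest probe, by 1.36 (SE 0.31, adjusted p = 0.0134) by the probe at 33609797-33609856 (mm8) and by 0.65 (SE 0.30, adjusted p = 0.122) by the probe at 33609987-33610233, both to the right of the brightest one. On the last of these the day 14 arrays stood at 3.39 and 3.41, the untreated tumours at 2.35 and 3.14 and the parotid glands at 6.05 and 5.68. By these 2 probes day 14 was below parotid, by 1.96 (adjusted p = 0.0173) and 2.46 (adjusted p = 0.00956), whereas the brightest probe differed by -0.50 (SE 0.27, adjusted p = 0.261). Class I heavy chains are near-identical paralogs, so any of these probes may also read other class I genes.

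For H2-D1, the other classical heavy chain, a probe that the files name LOC547343 lists an accession of H2-D1 among several others; it lies outside the set and was looked up after the values of the set were seen. It stood at 5.02 and 5.34 in untreated tumours, 5.36 on the day 3 array, 7.39 and 7.42 at day 14, 8.31 and 8.54 in parotid and 8.57 in submandibular gland. Untreated tumours and day 3 lay lowest, day 14 next and the glands highest, as with H2-K1. Untreated tumour was below parotid by 3.24 (SE 0.25, adjusted p = 0.000400), day 14 above untreated tumour by 2.23 (SE 0.25, adjusted p = 0.00113) and day 14 below parotid by 1.02 (SE 0.25, adjusted p = 0.0477).

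**Figure D2:**
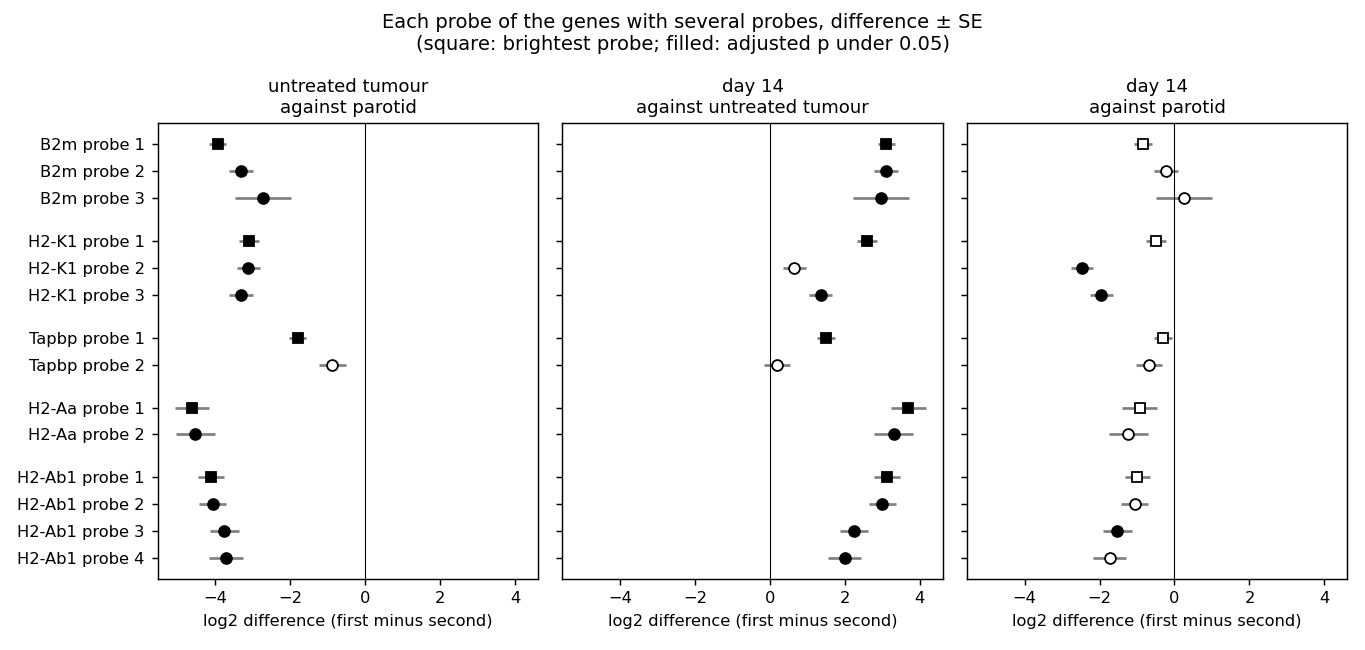
Log2 difference with its SE (horizontal axes) for each probe of the 5 genes that have several, in 3 comparisons; squares are the brightest probe of a gene and filled points have an adjusted p under 0.05. In day 14 against untreated tumour the probes of B2m lie together, from 2.97 to 3.10, and those of H2-K1 spread from 0.65 to 2.60; in untreated tumour against parotid the B2m probes spread from -3.94 to -2.72 and those of H2-K1 lie together.

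Tapbp, which bridges the peptide transporter and the empty class I molecule, stood at 2.73 and 3.11 in untreated tumours, 3.72 on the day 3 array, 4.32 and 4.50 at day 14, 4.86 and 4.58 in parotid and 5.25 in submandibular gland. The day 14 arrays lay just under those of parotid. It fell by 1.80 (SE 0.23, adjusted p = 0.00203) in untreated tumour against parotid and rose by 1.50 (SE 0.23, adjusted p = 0.00333) at day 14 against untreated tumour. Its other probe, which is dimmer and follows another transcript accession, passed in neither, with -0.88 (adjusted p = 0.0956) and 0.20 (adjusted p = 0.665).

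Tap1 and Tap2 form the transporter that carries peptides into the endoplasmic reticulum. Tap1 stood at -0.82 and -0.36 in untreated tumours, -1.36 on the day 3 array, -0.55 and -0.48 at day 14, 1.43 and -0.10 in parotid and 1.21 in submandibular gland. The parotid arrays lay 1.53 apart, and the untreated and day 14 tumours overlapped. The difference was -1.25 (SE 0.51, adjusted p = 0.0959) for untreated tumour against parotid and 0.07 (95% interval -1.16 to 1.30) for day 14 against untreated tumour. Without parotid replicate 2 the first of these became -2.02 with an adjusted p of 0.00180; within the slide that holds both untreated tumours and parotid replicate 1 it was -2.02 (adjusted p = 0.00916).

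Tap2 stood at -0.42 and 0.52 in untreated tumours, -0.03 on the day 3 array, -0.33 and -0.11 at day 14, 1.43 and -0.01 in parotid and 0.86 in submandibular gland. The untreated tumours overlapped with day 14, day 3 and parotid, while both day 14 arrays lay under both parotid arrays. Untreated tumour differed from parotid by -0.66 (SE 0.54, adjusted p = 0.363), a value that became -1.38 (adjusted p = 0.0285) without parotid replicate 2 and 0.064 (adjusted p = 0.906) without parotid replicate 1. Day 14 differed from untreated tumour by -0.27 (95% interval -1.57 to 1.03). The upper ends of both day 14 intervals, 1.30 and 1.03, lie under the rises of B2m and of H2-K1 by its brightest probe. The other H2-K1 probes rose by 1.36 and 0.65, the last of which is under both ends. The difference between genes was not tested.

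H2-Aa, the alpha chain of the I-A class II molecule, stood at -1.40 and -1.02 in untreated tumours, -0.20 on the day 3 array, 2.34 and 2.62 at day 14, 4.12 and 2.69 in parotid and 3.12 in submandibular gland. Both untreated tumours lay under every other array, and parotid replicate 1 stood above all others. It showed the largest drop of the 9 genes, 24.6-fold (-4.62, SE 0.47, adjusted p = 0.000924), and rose 12.9-fold at day 14 (3.69, SE 0.47, adjusted p = 0.00170). Its other probe gave -4.53 and 3.30.

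H2-Ab1, the beta chain that pairs with H2-Aa, stood at 1.82 and 2.28 in untreated tumours, 3.11 on the day 3 array, 5.02 and 5.33 at day 14, 6.59 and 5.75 in parotid and 5.87 in submandibular gland. The order of the arrays was that of H2-Aa in its main features, with untreated tumours lowest and parotid replicate 1 highest. It fell 17.4-fold (-4.12, SE 0.34, adjusted p = 0.000492) and rose 8.73-fold (3.13, SE 0.34, adjusted p = 0.00103). All 4 of its probes fell against parotid, by 3.72 to 4.12, and rose at day 14, by 1.99 to 3.13.

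H2-Eb1, the beta chain of the I-E molecule, was read by a single probe, which the files place at its position on chromosome 17 (33922800-33923261, mm8) but describe by an I-A beta mRNA, so which of the beta chains it reports is uncertain. It stood at -3.10 and -2.88 in untreated tumours, -2.29 on the day 3 array, 0.18 and 0.15 at day 14, 1.07 and 0.05 in parotid and -0.11 in submandibular gland. The day 14 arrays lay between those of parotid. The gene fell by 3.55 (SE 0.40, adjusted p = 0.00130) against parotid and rose by 3.16 (SE 0.40, adjusted p = 0.00165) at day 14. H2-Ea, which encodes the partner of H2-Eb1, had a probe that was not well above background on every array of any group.

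Cd74, the invariant chain, stood at 1.66 and 2.16 in untreated tumours, 3.75 on the day 3 array, 5.49 and 5.87 at day 14, 6.51 and 5.18 in parotid and 5.93 in submandibular gland. Day 3 stood furthest above the untreated tumours in this gene. It fell by 3.94 (SE 0.45, adjusted p = 0.00148) in untreated tumour against parotid and rose by 3.77 (SE 0.45, adjusted p = 0.00145) at day 14 against untreated tumour.

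**Figure D3:**
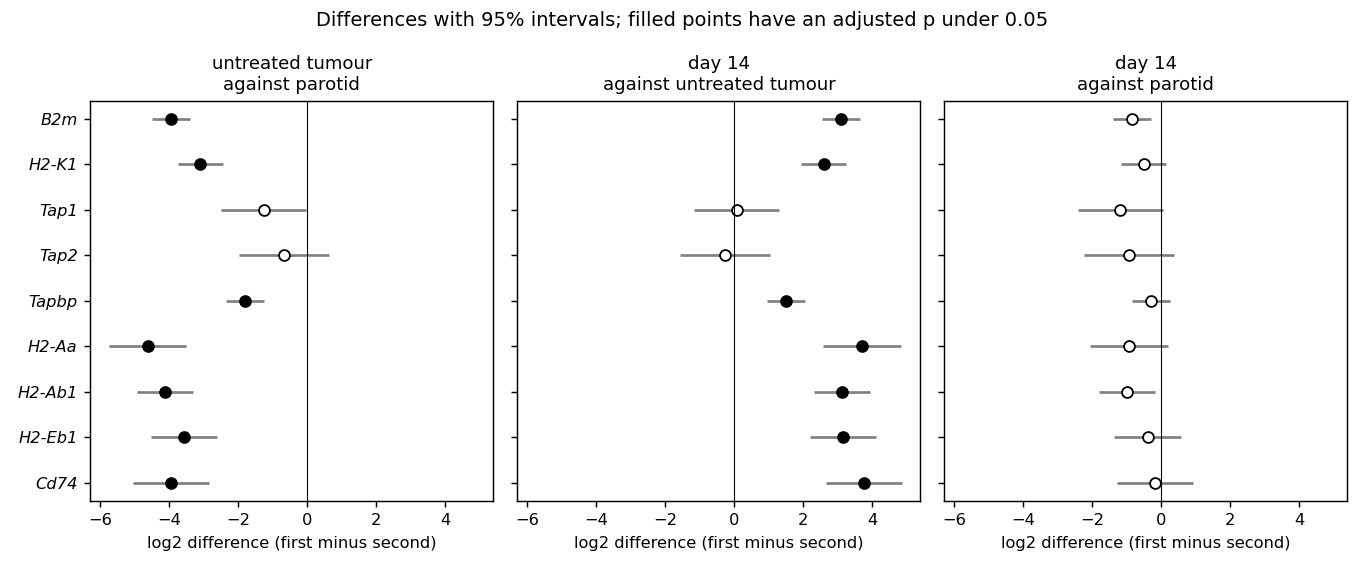
Log2 difference with its 95% interval (horizontal axes) for the 9 genes in 3 comparisons; filled points have an adjusted p under 0.05. Against parotid 7 genes are lower in untreated tumours, the same count is higher at day 14 than in untreated tumours, and none passed for day 14 against parotid, where all 9 values are below 0 and run from -1.18 to -0.17.

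The 4 class II genes and B2m followed each other closely over the 8 arrays, with Pearson correlations of 0.997 between H2-Aa and H2-Ab1, 0.987 between B2m and H2-Aa and 0.954 between B2m and Cd74. Tap1 and Tap2 correlated at 0.865 with each other, but at 0.685 and 0.402 with B2m. These are descriptions over 8 arrays that share the 5 groups. The order of group means was parotid, submandibular, day 14, day 3, untreated tumour in B2m, H2-K1, H2-Aa and H2-Ab1. Submandibular gland exchanged places with parotid in Tapbp and Cd74 and with day 14 in H2-Eb1. Of the neighbours in this order, parotid and submandibular gland, and day 3 and untreated tumour, did not differ past the threshold in any of the 9 genes, while day 14 and submandibular gland were not tested against each other.

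At day 3, with 1 array, none of the 9 genes passed against untreated tumour by limma, where 0.00612% of all genes did. Without adjustment 4 of the 9 had a p under 0.05, where 1432 of all 16350 genes did. The values were 1.84 (SE 0.55, adjusted p = 0.422) for Cd74, 1.07 (SE 0.41, adjusted p = 0.547) for H2-Ab1, 0.80 (SE 0.28, adjusted p = 0.489) for Tapbp and 0.68 (SE 0.28, adjusted p = 0.569) for B2m. The day 3 array lay above both untreated tumours in 7 of the 9 genes, and under both in Tap1. The share of all genes that did so was not computed, so no rise is read from this count. H2-K1 differed by 0.20 (95% interval -0.60 to 1.00). Cd74 passed when parotid replicate 1 or 2 was left out of the fit, with an adjusted p of 0.0371 and 0.0373 and the same difference of 1.84. Day 3 lies on another slide than both untreated tumours, so for this comparison slide and group cannot be told apart without the arrays of other groups; with slide as a term in the fit none of the 9 passed either.

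Against the day 3 array, the day 14 arrays were higher in 5 of the 9 genes, where 22.7% of all genes passed and 10.9% were higher. The rises were 2.42 for B2m (adjusted p = 0.00344), 2.40 for H2-K1 (0.00580), 2.68 for H2-Aa (0.0219), 2.06 for H2-Ab1 (0.0186) and 2.46 for H2-Eb1 (0.0177). Cd74 differed by 1.93 (adjusted p = 0.0522) and Tapbp by 0.69 (adjusted p = 0.124). Without day 14 replicate 1 or replicate 2, only B2m of the 9 still passed, and the adjusted p of H2-K1, H2-Aa, H2-Ab1 and H2-Eb1 lay between 0.0510 and 0.115. Without parotid replicate 1 or 2, 7 of the 9 passed, Cd74 and Tapbp among them. Within the slide that holds day 14 replicate 2 and the day 3 array, the differences were 2.57 for B2m, 2.27 for H2-K1, 2.82 for H2-Aa and 2.12 for Cd74, with no test.

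Day 14 tumours were compared with parotid gland to see how far the level after treatment differed from that of normal gland. None of the 9 genes passed by limma, where 11.3% of all genes did. Without adjustment 2 had a p under 0.05, where 4954 of all 16350 genes did. These 2 were B2m (-0.84, SE 0.23, adjusted p = 0.0628) and H2-Ab1 (-0.99, SE 0.34, adjusted p = 0.108). The values were -0.93 (95% interval -2.05 to 0.20) for H2-Aa, -0.39 (-1.35 to 0.56) for H2-Eb1, -0.17 (-1.27 to 0.93) for Cd74, -0.31 (-0.86 to 0.25) for Tapbp and -1.18 (-2.41 to 0.05) for Tap1. These intervals do not show that the groups are alike. The parotid replicates stood apart in the class II genes, by 1.43 in H2-Aa and 1.33 in Cd74. Without parotid replicate 2, 5 of the 9 genes were lower at day 14: B2m (-0.98, adjusted p = 0.0161), Tap1 (-1.94, adjusted p = 0.00654), Tap2 (-1.65, adjusted p = 0.0290), H2-Aa (-1.64, adjusted p = 0.00756) and H2-Ab1 (-1.41, adjusted p = 0.0119). Without parotid replicate 1, B2m alone was (-0.70, adjusted p = 0.0348), and Cd74 stood at 0.50 (adjusted p = 0.199). Within the first slide, day 14 was lower in B2m, Tap1, H2-Aa and H2-Ab1, and within the second the untested differences were -0.55, -0.38, -0.07 and -0.42.

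Against submandibular gland, with 1 array, untreated tumours were lower in 7 of the 9 genes, where 29.4% of all genes passed and 15.1% were lower, and the values ran from -4.33 in H2-Aa to -0.81 in Tap2. Tap1 differed by -1.80 (SE 0.62, adjusted p = 0.0751), and passed without parotid replicate 1 (adjusted p = 0.00307) or replicate 2 (adjusted p = 0.00277). H2-Eb1 fell by 2.89 (SE 0.48, adjusted p = 0.00755). The single submandibular array lies on another slide than both untreated tumours. None of the 9 genes passed between submandibular and parotid gland by limma, where 2.35% of all genes did. None of the 9 had an unadjusted p under 0.05 either, where 2764 of all 16350 genes did. The values ran from -0.67 in H2-Eb1 to 0.55 in Tap1. Without parotid replicate 2, 1 of the 9 passed.

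The differences above are relative to the 75th percentile of each array, which was lower at day 14 than in untreated tumours. Without any scaling between arrays the median over all genes shifted to 2.05 for untreated tumour against parotid and to -2.22 for day 14 against untreated tumour. On that scale B2m (-1.90), H2-Aa (-2.58), H2-Ab1 (-2.08) and Cd74 (-1.90) were still lower in untreated tumours than in parotid, and H2-K1 (-1.06, adjusted p = 0.0655) and H2-Eb1 (-1.52, adjusted p = 0.125) no longer passed. For day 14 against untreated tumour no gene of the 9 was higher by the test: B2m differed by 0.86 (adjusted p = 0.179), H2-K1 by 0.36 (0.512), H2-Aa by 1.45 (0.113), H2-Ab1 by 0.88 (0.228), H2-Eb1 by 0.92 (0.339) and Cd74 by 1.52 (0.0717). Tap1 (-2.17, adjusted p = 0.0408) and Tap2 (-2.51, adjusted p = 0.0203) were then lower, and Tapbp differed by -0.75 (0.246). The unscaled signal of H2-Aa was 365 and 480 in untreated tumours against 898 and 1452 at day 14, and that of H2-K1 was 49420 and 57630 against 65050 and 71880. The rises at day 14 are thus rises relative to the other genes of the array.

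Among 13 other class I genes tested, of 19 on the list, 10 were lower and 1 higher in untreated tumour than in parotid, and 11 were higher and 1 lower at day 14 than in untreated tumour. Their medians were -3.17 and 1.65. Beside this list and those that follow, 20.3% of all genes were lower in untreated tumour than in parotid. At day 14 against untreated tumour 24.3% of all genes were higher and 23.4% lower. H2-Q8, a nonclassical heavy chain of the Q region, fell by 4.55 (SE 0.29, adjusted p = 0.000239), and H2-T22, which gamma-delta T cells can recognise, rose by 2.32 at day 14 (SE 0.30, adjusted p = 0.00187). H2-T3, the thymus leukaemia antigen, was the exception in both: its probe was not well above background on the parotid and day 14 arrays, and untreated tumours stood at least 7.28-fold above parotid (adjusted p = 0.00715) and at least 6.74-fold above day 14 (adjusted p = 0.0102, or 0.0795 without day 14 replicate 1). At day 14 against parotid 5 of the 13 were lower, where 5.06% of all genes were. They were H2-Q2, H2-Q7, H2-Q8, H2-Q10 and H2-T23, lower by 1.37 to 2.41. These names were picked after their values were seen. Without either day 14 array no gene at all passed in that comparison, so these 5 calls, and that of LOC547343, were lost. H2-T24, counted among the 11 that were higher at day 14 than in untreated tumour, was well above background on no array of either group, so its call compares signals at background. Probes of this family share sequence, so their counts are not independent.

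Of 11 genes that supply and load class I peptides, 3 were lower in untreated tumour than in parotid, Psmb9 (-2.21, SE 0.45, adjusted p = 0.0111), a catalytic subunit of the immunoproteasome, Psmb10 (-1.41, SE 0.40, adjusted p = 0.0350), another such subunit, and the tapasin-related Tapbpl (-1.26, SE 0.24, adjusted p = 0.00951). At day 14 against untreated tumour Tapbpl rose (1.08, SE 0.24, adjusted p = 0.0133) and the other 10 did not pass. The list medians were -0.43 and 0.40. Leaving out 1 array at a time, Psmb9 kept its call in 5 of 6 fits (adjusted p up to 0.0587), Psmb10 in 2 of 6 (up to 0.148) and Tapbpl at day 14 in 3 of 6 (up to 0.0981).

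Of 9 other class II genes tested, of 11 on the list, 5 were lower and 1 higher in untreated tumour than in parotid, and 4 were higher and 1 lower at day 14 than in untreated tumour, with medians of -1.94 and 1.22. H2-Oa and H2-Ob encode the DO molecule, which tempers peptide exchange on class II and is known mainly from B cells. H2-Oa fell by 4.85 (SE 1.19, adjusted p = 0.0220) and rose by 6.36 (SE 1.19, adjusted p = 0.00689). H2-Ob was not well above background in untreated tumours; parotid stood at least 5.84-fold above them (adjusted p = 0.0495; 1 of 2 parotid arrays measured it) and day 14 at least 11.1-fold (adjusted p = 0.0217). The others that passed, named after their values were seen, were H2-DMa (lower) and H2-DMb1 (both), which form the peptide exchanger DM, Marchf1, a ligase that marks class II for degradation (-2.64 and 2.28), and, in the other direction, Lgmn, a lysosomal protease (1.14 and -2.22). Over fits without 1 array H2-Oa passed in 2 of 6 (adjusted p up to 0.0935) and 4 of 6 (up to 0.0549), and H2-Ob in 2 of 6 both times (up to 0.191 and 0.121).

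Among 18 regulators tested (19 listed; no probe is named Nlrc5, the class I transactivator), 7 were lower and 1 higher in untreated tumour than in parotid, and 5 were higher and 2 lower at day 14 than in untreated tumour, with medians of -0.40 and 0.41. In either direction 8 of 18 and 7 of 18 passed, where 39.0% and 47.7% of all genes did, so these counts are near the background; the 7 that were lower stand beside 20.3% of all genes lower. Nfyc, a subunit of the factor that binds the Y box, was the 1 that was higher (1.21), and it was lower at day 14 (-1.99), as was Rfxap (-0.61); these are named after their values were seen. Ciita, the transactivator of class II genes, stood at -0.06 and -0.01 in untreated tumours, -0.78 on the day 3 array, 0.64 and 0.12 at day 14, 1.65 and -2.10 in parotid and -1.07 in submandibular gland. Its level did not follow the class II genes: the parotid arrays lay on either side of the tumours, with a difference of 0.19 (SE 1.09, adjusted p = 0.904) that was 2.06 (adjusted p = 0.00206) without parotid replicate 1 and -1.68 (adjusted p = 0.00409) without replicate 2. Day 14 differed from untreated tumour by 0.41 (SE 1.09, adjusted p = 0.775).

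Irf1, an interferon-induced activator of class I genes, fell by 2.13 (SE 0.49, adjusted p = 0.0179) and rose by 2.25 (SE 0.49, adjusted p = 0.0119). Irf8, a factor of B cells and myeloid cells, fell by 2.19 (SE 0.70, adjusted p = 0.0496) and rose by 2.85 (SE 0.70, adjusted p = 0.0179). Rfx5, a subunit of the factor that binds the X box, differed by 0.76 (SE 0.61, adjusted p = 0.358) and -1.45 (SE 0.61, adjusted p = 0.0947), and its probe was not well above background on the day 14 arrays. Leaving out 1 array, Irf1 passed in 4 of 6 and 3 of 6 fits (adjusted p up to 0.0852 and 0.0875) and Irf8 in 2 of 6 each time (up to 0.161 and 0.0977).

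Of 20 interferon-induced genes, 7 were lower in untreated tumour than in parotid and none higher, and 3 were higher and 2 lower at day 14 than in untreated tumour, with medians of -0.71 and -0.24. In either direction 7 and 5 of 20 passed, and 3 and 1 of the 11 class I loading genes. Counted in either direction, these too were at or below the shares of all genes. The 7 and the 3 that passed against parotid were all lower, where 20.3% of all genes were lower. Cxcl9, a T cell chemokine induced by interferon gamma, fell by 3.83 (SE 0.95, adjusted p = 0.0225) and rose by 4.20 (SE 0.95, adjusted p = 0.0133). Iigp1, an interferon-inducible GTPase, fell by 3.32 (SE 0.41, adjusted p = 0.00188) and rose by 2.92 (SE 0.41, adjusted p = 0.00252). Gbp2 also rose at day 14 (1.71), and the 2 that fell were Oas1a (-2.01) and Usp18 (-1.50); these are named after their values were seen. Cxcl9 passed in 2 of 6 and 3 of 6 fits that left out 1 array (adjusted p up to 0.0969 and 0.0822), and Iigp1 in all 6 both times.

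Of 6 costimulation genes tested, of 8 listed, Cd86, Icosl and the adhesion molecule Icam1 were lower in untreated tumour than in parotid, and the same 3 were higher at day 14 than in untreated tumour. Icam1 is named after its values were seen. Cd86, a ligand of CD28 on activated antigen-presenting cells, fell by 3.62 (SE 0.55, adjusted p = 0.00387) and rose by 2.54 (SE 0.55, adjusted p = 0.0115), with 1 of 2 arrays well above background both in untreated tumours and at day 14. Icosl, the ligand of ICOS, fell by 2.83 (SE 0.75, adjusted p = 0.0278) and rose by 3.54 (SE 0.75, adjusted p = 0.0104). The rises passed in 2 of 6 (Cd86, adjusted p up to 0.0813) and 3 of 6 (Icosl, up to 0.0763) fits without 1 array, and the fall of Icosl in 2 of 6 (up to 0.109).

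At day 14 against untreated tumour, most markers of B cells, T cells and dendritic cells rose as these genes did, and most of those of macrophages did not. Their part in the result was not tested. Lower in untreated tumour than in parotid were 2 of 5 B cell, 6 of 8 T cell and 4 of 5 dendritic cell markers. Against submandibular gland 0 of 5, 1 of 8 and 2 of 5 were lower, where 15.1% of all genes were. B cell markers (5 genes tested, among them Ms4a1) had a log2 summed level of -3.04 and -2.87 in untreated tumours, -1.95 on the day 3 array, 4.61 and 4.56 at day 14, 5.46 and -0.46 in parotid and 0.37 in submandibular gland. Ms4a1, the antigen CD20, was not well above background on the untreated tumour arrays, the day 3 array and parotid replicate 2. Of the 5 markers, 1 was well above background on that parotid array, Cd79b at -0.71 (named after its value was seen). Cd79b stood at -3.79 and -4.21 in untreated tumours and -3.05 on the day 3 array. Against untreated tumour 4 of the 5 were higher at day 14, Ms4a1 at least 102-fold (adjusted p = 0.0205). T cell markers (8 genes, among them Cd3d and Cd8a) stood at 0.95 and 0.67 in untreated tumours, 0.70 on the day 3 array, 4.05 and 4.20 at day 14, 6.28 and 1.63 in parotid and 2.45 in submandibular gland, with 6 of 8 higher at day 14 than in untreated tumour. Parotid replicate 1 was the highest array of both lists, as it was for all 4 class II genes. In both lists the day 14 arrays stood above parotid replicate 2 and submandibular gland. For H2-Aa and H2-Ab1 the day 14 arrays lay under both of these, for H2-Eb1 above both and for Cd74 between them.

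Dendritic cell markers (5 genes, among them Batf3 and Itgax) stood at 0.20 and -0.03 in untreated tumours, 0.97 on the day 3 array, 1.89 and 1.99 at day 14, 3.34 and 1.33 in parotid and 1.18 in submandibular gland. Of the 5, 4 were lower in untreated tumour than in parotid and 4 higher at day 14 than in untreated tumour; Batf3 fell by 1.83 (adjusted p = 0.0151) and rose by 1.49 (adjusted p = 0.0242), and Itgax fell by 1.88 (adjusted p = 0.0132) and rose by 1.52 (adjusted p = 0.0217). Macrophage markers (10 genes) did not follow the class II genes: they stood at 7.59 and 8.06 in untreated tumours, 7.81 on the day 3 array, 6.84 and 6.79 at day 14, 8.28 and 8.03 in parotid and 7.18 in submandibular gland, and at day 14 against untreated tumour 6 fell and 1, Cd163 (5.25, named after its value was seen), rose. Lyz2, lysozyme, differed by -0.87 (adjusted p = 0.0531). C1qc, a complement subunit made by macrophages, fell by 1.71 (SE 0.27, adjusted p = 0.00358). 

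Plasma cell markers (4 genes, among them Xbp1 and Jchain) stood at 4.18 to 4.32 in untreated tumours and 5.32 and 5.55 at day 14, a sum that hides opposite members. Jchain, the joining chain of secreted antibodies, rose by 8.63 (SE 0.47, adjusted p = 0.000179) and Mzb1 was at least 97.4-fold higher, while Sdc1 fell by 2.80 (SE 0.57, adjusted p = 0.00948) and Xbp1 differed by -0.52 (adjusted p = 0.0944); Mzb1 and Sdc1 are named after their values were seen. Leukocyte markers (3 genes, among them Ptprc and Coro1a) stood at 2.51 and 2.58 in untreated tumours against 5.23 and 5.29 at day 14. Ptprc, the common leukocyte antigen, rose by 3.59 (SE 1.01, adjusted p = 0.0279) at day 14. Epithelial markers (6 genes, among them Krt8 and Krt18) went the other way, with 5 of 6 lower at day 14 than in untreated tumour, Krt8 by 1.69 (SE 0.57, adjusted p = 0.0485). Endothelial markers (4 genes, among them Vwf and Kdr) stood at 1.04 and 0.07 in untreated tumours and 3.52 and 3.46 at day 14. Only 2 of these 4 passed as higher at day 14. Adipocyte markers (3 genes, among them Adipoq and Cfd) stood at -0.61 and -5.91 in untreated tumours against 6.16 and 6.07 at day 14. Of 4 fibroblast markers 3 were higher and 1 lower at day 14: Dcn, a matrix proteoglycan, rose by 4.04 (SE 0.47, adjusted p = 0.00133), and Col1a1, a collagen chain, fell by 2.35 (SE 0.60, adjusted p = 0.0209).

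The counts of these lists moved when 1 array was left out. Lower in untreated tumour than in parotid were 0 to 7 of the class I loading genes, 9 to 11 of the other class I genes, 1 to 6 of the class II list, 2 to 9 of the regulators, 1 to 6 of the costimulation genes, 1 to 8 of the interferon-induced genes, 0 to 5 of the B cell, 1 to 7 of the T cell and 1 to 5 of the dendritic cell markers. Higher at day 14 than in untreated tumour were 0 to 6 of the class I loading genes, 5 to 11 of the other class I genes, 0 to 6 of the class II list, 2 to 7 of the regulators, 0 to 6 of the costimulation genes, 1 to 5 of the interferon-induced genes, 0 to 5 of the B cell, 0 to 7 of the T cell, 0 to 5 of the dendritic cell and 0 to 3 of the leukocyte markers, Ptprc among those lost, and 0 to 5 of the epithelial markers were lower. The low ends came from fits without 1 of the untreated or day 14 tumour arrays and the high ends from fits without a parotid array. The 7 genes of the set that passed did so in all 6 such fits of both comparisons.

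**Figure D4:**
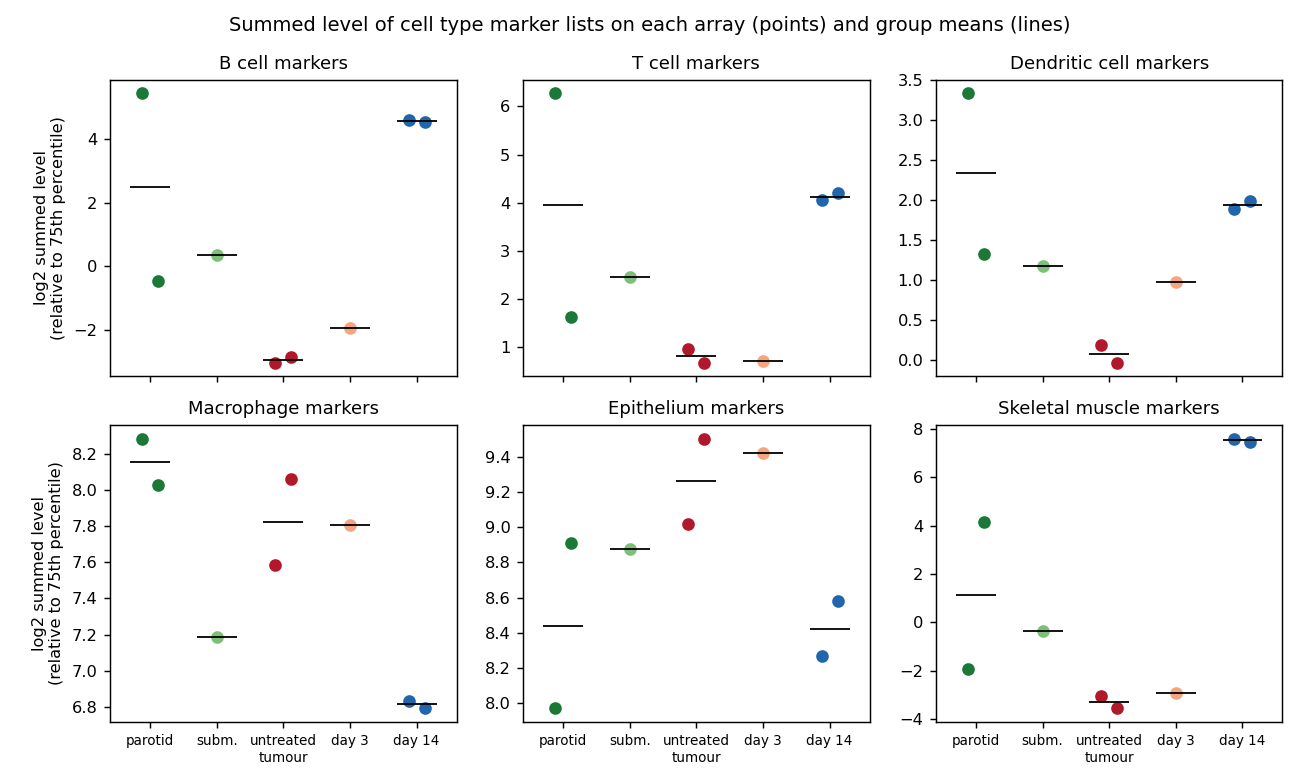
Log2 summed level of 6 marker lists relative to the 75th percentile of the array (vertical axes) on each of 8 arrays (points, by group), with group means as lines. B cell, T cell and dendritic cell markers are lowest in the tumours before day 14 and highest on parotid replicate 1, macrophage markers are lowest at day 14 (6.79 and 6.84), and muscle markers are highest at day 14 (7.47 and 7.59).

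Except for B2m and Cd74, the genes lie together in the MHC on chromosome 17, between 33536605 and 33923261 (mm8). Of the 22 other genes tested between the outermost probes, 12 were lower and 1 higher in untreated tumour than in parotid. The median was -1.54, and 20.3% of all genes were lower in that comparison. At day 14 against untreated tumour 10 were higher and 1 lower, where 24.3% of all genes were higher. The median was then 1.23. Among the 12 were H2-K2 and 5 genes already counted in the lists above, H2-Oa, H2-Ob, H2-DMa, H2-DMb1 and Psmb9. Genes with no known part in presentation were among those that passed in both comparisons, B3galt4 (-2.07 and 1.25), Rps18 (-1.55 and 1.24) and H2-Ke6 (-1.22 and 1.02). Ring1, Rxrb, Brd2 and Vps52 passed in neither comparison, with values between -0.41 and 0.45. Psmb8, an immunoproteasome subunit gene next to Tap1, did not pass either (0.49 and -0.77), and Wdr46 went the other way (0.90 and -0.96). The probes of 2 of the 22, LOC56628 and NAP123578-1, lie on or close to the H2-K1 probe and may read the same transcript. These genes were picked for naming after their values were seen.

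**Figure D5:**
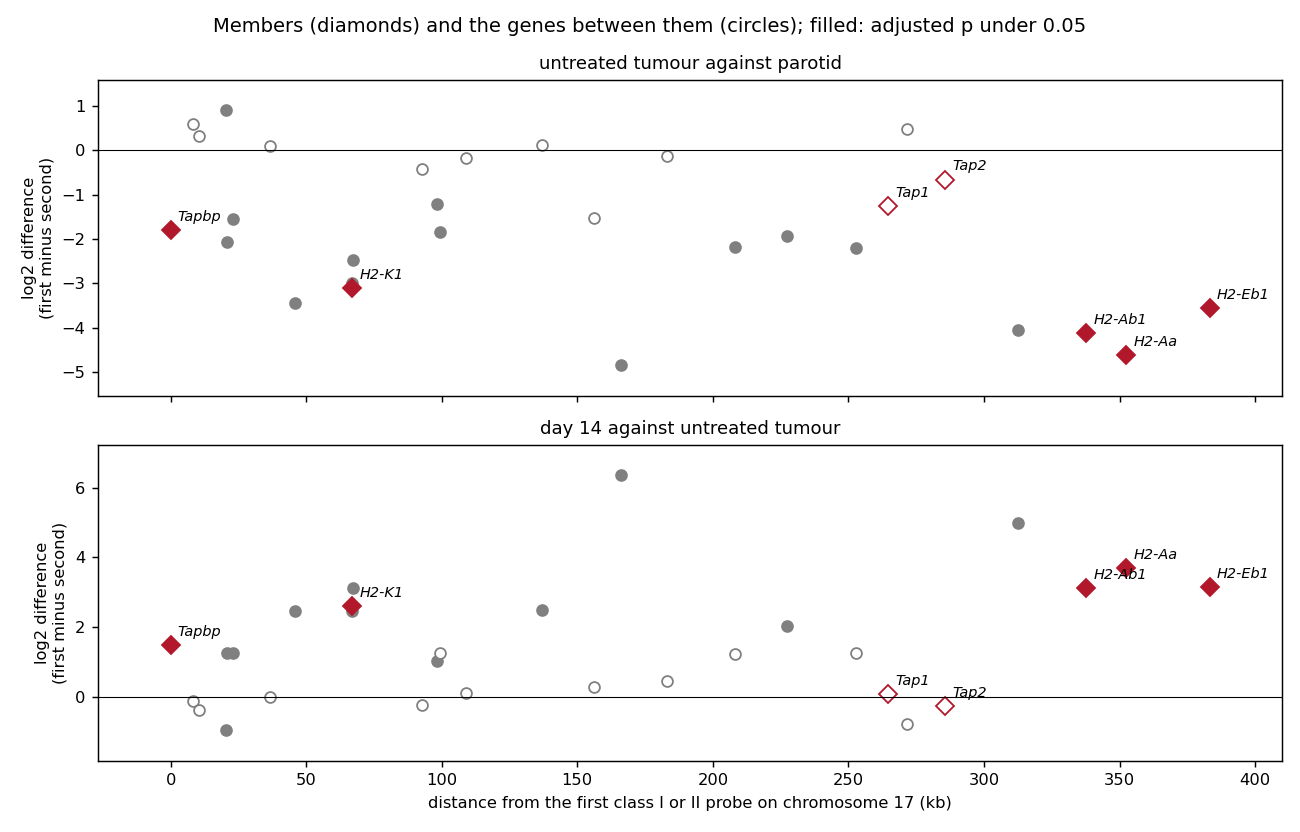
Log2 difference (vertical axes) against distance in kb from the first member probe on chromosome 17, for 7 members (diamonds) and the 22 genes between them (circles), filled where the adjusted p was under 0.05. H2-K1, H2-Aa, H2-Ab1 and H2-Eb1 lie far from 0 in both comparisons, with Tap1 and Tap2 between them near 0 in the lower panel (0.07 and -0.27).

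Among 9903 named genes well above background on all 8 arrays, those whose levels were most like the mean of the 4 class II genes were Gigyf2 (Pearson correlation 0.991), Klrd1 (0.986), Cyld (0.986), Asah2 (0.985) and Cxcr3 (0.984). Klrd1 (CD94) is a receptor of natural killer cells that recognises a nonclassical class I molecule, and Cxcr3 is the receptor for Cxcl9. Most like the mean of B2m and H2-K1 were Slc16a7 (0.997), Copz2 (0.997), Mfap3l (0.994), Mcts1 (0.994) and Cmbl (0.993). These rankings describe 8 arrays in 5 groups.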

How the data were processed

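Total RNA from 8 samples, 300 ng each per the labels, was hybridised to arrays of design 014868. Per the file headers, Feature Extraction 10.7.3.1 made the deposited processed signal, an intensity with background subtracted and no scaling between arrays. The authors' deposited table of log2 values, with column medians of 5.52 to 5.58 and a normalization that is not given in the sources used here, served as an alternative only; its columns matched their arrays with correlations of 0.971 to 0.980. No member spot was saturated. The share of spots well above background was 43.2% to 58.4%, and 791 spots of the day 3 array were called non-uniform, where other arrays had 5 to 51. The number of arrays limits the precision.

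Each signal was divided by the 75th percentile of its array's non-control spots and log2 transformed. Outlier spots were left out and the spots of a probe averaged. The filter asked that a probe be well above background on all arrays of some group, which 24403 probes met, and the brightest probe was taken for each of 16350 genes. Gene names follow RefSeq where a symbol, accession or synonym matched (25333, 4772 and 2918 probes) and otherwise the files (8151). Group means were fitted to the 8 arrays by limma 3.58.1 (R 4.3.3), which used an intensity trend, 3 residual and 3.28 prior degrees of freedom. Groups of 1 array were given the spread of the others. The 7 comparisons were tested two-sided with Benjamini-Hochberg adjustment over all genes. The procedure was tested on simulated data. Summed levels add the linear levels of a list's tested genes. Where a gene was well above background on no array of a group, its fold is a lower bound: the bright group's mean against, on each dim array, the higher of the probe's own signal and the lowest signal well above background.

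The members and the 19 further lists (160 genes, 142 tested) were chosen with earlier results of these data known. Named were all members, the 2 largest differences past the threshold from each pathway list in each of the first 2 comparisons, the regulators Ciita, Nlrc5, Rfx5 and Irf1, the brightest 2 genes of each cell type list and the 5 genes most like each class; any other is said to be named after its values were seen, and 2 that this rule takes are not reported here. Alternatives were normexp with offset 50, quantile normalization, deposited values, no filter or a stricter one, averaged probes, no trend, a slide block (fixed, random), the arrays of slide 1, those of the compared groups, a replicate block, and 1 array left out. A percentile over probes detected on all 8 arrays, no scaling, and a fit by probe were added after seeing the data.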

Additional observations from a re-analysis of the deposited data

How the results depend on the processing

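With 1 or 2 arrays in a group, the calls rest on a spread pooled over all groups, and the labels do not say that replicates are separate animals. Under normexp, quantile normalization, the deposited values, other filters, no intensity trend and slide as a fixed or random block, 7 or 8 of the 9 genes passed for untreated tumour against parotid and 7 for day 14 against untreated tumour. With normexp H2-Eb1 no longer passed against submandibular gland (-1.75, adjusted p = 0.0516), which left 6 genes. Replicate numbers did not pair the samples, since deviations from the group means correlated at 0.013, 0.14 and -0.075 between groups; with the replicate block 7, 7 and 0 genes passed for untreated tumour against parotid, day 14 against untreated tumour and day 14 against parotid, as without it.

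Without scaling between arrays, a setting added after seeing the data, 4 genes passed for untreated tumour against parotid, 2 for day 14 against untreated tumour, 0 for day 14 against day 3 and 2 for untreated tumour against submandibular. Signs then turned for Tap1 (0.79), Tap2 (1.38), Tapbp (0.24) and Psmb10 (0.63) in untreated tumour against parotid, for Tap1 (-2.17), Tapbp (-0.75), Tapbpl (-1.16) and Ciita (-1.83) in day 14 against untreated tumour, for Tap1 (-0.99) and Tapbp (-1.14) in day 14 against day 3, for H2-K1 (-0.21) in day 3 against untreated tumour, and for Tap1 (0.011) and Tap2 (1.00) against submandibular. The median of all genes moved by the amounts given above, and these fits differ from the reported ones in scaling alone. With a gene's probes averaged, 1 gene passed for day 14 against parotid, H2-K1 (-1.64, adjusted p = 0.0183), and H2-K1 at day 3 against untreated tumour was -0.10. Within slide 1, 4 passed for day 14 against parotid. With only the arrays compared, 8 passed for day 14 against day 3, from a fit with 1 residual degree of freedom.

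Other signs turned on values that did not pass, except where an adjusted p is given; the cause was not tested. At day 3 against untreated tumour these were Tap2 (0.059 with normexp, 0.034 with the deposited values, 0.53 with slide as a fixed block) and H2-Eb1 (-0.10 with normexp). At day 14 against untreated tumour they were Tap1 (-0.019 with the deposited values), Tap2 (0.037 with slide as a fixed block) and Rfx5 (0.15 with normexp). For untreated tumour against parotid they were Rfx5 (-0.13 with normexp) and Ciita (-0.26 with normexp, -0.88 with slide as a fixed block, -1.68 within slide 1, adjusted p = 0.00546).

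Leaving out 1 array at a time, the genes that passed numbered 7 to 9 for untreated tumour against parotid, 7 for day 14 against untreated tumour, 0 to 1 at day 3, 1 to 7 for day 14 against day 3, 0 to 5 for day 14 against parotid, 7 to 8 against submandibular and 0 to 1 between the glands. Signs turned for Tap2 (-1.38 to 0.064) and Ciita (-1.68 to 2.06) in untreated tumour against parotid, Tap1 (-0.16 to 0.30) and Tap2 (-0.73 to 0.20) in day 14 against untreated tumour, Tap2 (-0.55 to 0.38) at day 3, and H2-Eb1 (-0.91 to 0.12) and Cd74 (-0.83 to 0.50) in day 14 against parotid.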
